A study of Mus musculus with 384 samples.

Results

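The 10 genes S100a8, S100a9, Lcn2, Ltf, Camp, Ngp, Chil3, Wfdc21, Lrg1 and Hp encode proteins of the secondary granules and of mature neutrophils, and they were taken by name from the 46078 gene rows of the count tables. All 10 were found. They were read in single granulocyte/macrophage progenitors (GMPs), the marrow cells from which neutrophils and monocytes arise. Each sample was 1 sorted well, and the 384 wells formed 4 sets of 96: BCR-ABL replicates 1, 2 and 4 and 1 control set. All mice were C57Bl/6. The BCR-ABL sets came from Scl-tTA::TRE-BCR/ABL mice, in which the Scl promoter drives the transactivator that switches on the BCR/ABL oncogene once doxycycline is withdrawn. These mice were bred on 20 mg per L doxycycline in drinking water, which was withdrawn at 5 weeks of age. Both groups were analysed 5 to 6 weeks after induction, at which time the model develops a chronic myeloid leukaemia-like disease. The labels name the treatment of the fourth set as control and give no genotype for it. Its samples carry the same entries of 20 mg per L doxycycline and induction at 5 weeks of age. How these apply to control mice is not stated. The sort kept cells positive for c-Kit, CD34 and FcγR and negative for Sca-1 and for lineage antigens, among them Mac-1 and Gr-1, so cells with much of these 2 mature myeloid antigens were removed from every set.

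Neutrophil granules are made in sequence. Primary granules, with elastase and myeloperoxidase, are filled at the promyelocyte stage. Secondary granules, with lactoferrin, cathelicidin and lipocalin 2, follow at the myelocyte and metamyelocyte stages under the transcription factor C/EBPε, and gelatinase granules follow in still later cells, in which cytosolic S100A8 and S100A9 are abundant. Transcripts of the secondary granules are therefore usually low in GMPs. The questions here were in how many cells of each set each transcript was found, in which order, and with which others.

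A well entered the comparisons if it held 50000 gene reads or more and showed reads of 1000 genes or more. This applied to 323 wells, 76, 61 and 92 of BCR-ABL replicates 1, 2 and 4 and 94 of the control. Their summed gene reads ranged from 121378632 to 140995697 per set. Values per cell were read at an equal depth of 674952 reads, drawn at random from each cell, which left 65, 54, 81 and 90 cells in the same order. Such a cell was said to express a gene from 10 reads on. Reads carry no molecular identifiers, so the exact 95% intervals of shares cover counting error only. Of the markers of the gate, Kit reached 10 reads in 98.5%, 100% and 100% of cells of the BCR-ABL sets and in 95.6% of control cells. Fcgr3, an Fcγ receptor of the gate, was at 100%, 100%, 100% and 98.9%. Cd34, the third marker, was at 69.2%, 81.5% and 59.3%, against 95.6% of control cells. The sets also differed in Xist, the transcript of the inactive X chromosome, which was found at 5 CPM (counts per 1e6 gene reads) or more in 75, 0 and 3 kept cells of the BCR-ABL sets and in 94 control cells. BCR-ABL replicate 1 was alike to the control in this respect, and its values stand first below. The labels do not say whether sets were separate animals, so p-values measure only the spread between these sets, which may be technical.

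The genomic stretches just upstream of the members are given first, since the members are read together in what follows. RefSeq promoters (GRCm38.p6) were found for 8 of the 10 genes. Hp and Wfdc21 had no entry. The windows of 250 bases before each RefSeq start were searched on both strands for TTGCNNAA, a form of the C/EBP motif, for the PU.1 motif GAGGAAG and for the GFI1 motif AAATCNC. The C/EBP letters were in 4 of the 8 windows (S100a9, Lcn2, Ltf and Ngp, with 2 matches in Ngp), against 9.56% of all 32851 promoter windows. The PU.1 letters were in 2 (S100a8 and Lcn2), against 10.6%, and the GFI1 letters in 1 (Ltf), against 10.3%. The Lcn2 window held 0 bases before the first that GENCODE vM21 places in an exon, so its matches lie from that base on. Printed below are the pair of neighbouring S100 genes, Ngp as the gene with 2 matches, and Lrg1 as a gene with none, each up to the first base that GENCODE vM21 places in an exon, with matches to the C/EBP letters in capitals. The S100a8 stretch is chr3:90668821-90668977 on the plus strand, and that of S100a9 is chr3:90695722-90695971 on the minus strand. The Ngp stretch is chr9:110419558-110419746 on the plus strand, and that of Lrg1 is chr17:56122002-56122196 on the minus strand. All are written 5′ to 3′ on the gene's strand.
S100a8: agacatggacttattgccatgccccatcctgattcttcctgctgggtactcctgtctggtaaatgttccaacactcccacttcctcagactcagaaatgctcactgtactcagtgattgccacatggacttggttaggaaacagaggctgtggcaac
S100a9: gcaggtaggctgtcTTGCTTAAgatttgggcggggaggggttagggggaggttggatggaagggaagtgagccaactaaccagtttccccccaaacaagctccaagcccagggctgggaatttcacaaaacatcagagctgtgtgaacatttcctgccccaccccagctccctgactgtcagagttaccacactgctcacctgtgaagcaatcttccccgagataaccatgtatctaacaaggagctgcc
Ngp: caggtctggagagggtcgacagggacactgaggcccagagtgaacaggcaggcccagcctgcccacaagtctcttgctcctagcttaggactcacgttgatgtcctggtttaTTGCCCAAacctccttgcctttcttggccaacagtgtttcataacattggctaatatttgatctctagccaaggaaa
Lrg1: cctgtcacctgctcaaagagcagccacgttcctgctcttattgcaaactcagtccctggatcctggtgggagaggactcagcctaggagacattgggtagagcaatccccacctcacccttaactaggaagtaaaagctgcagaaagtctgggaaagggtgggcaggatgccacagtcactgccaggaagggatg
The match in S100a9 began 236 bases before its start. The matches in Ngp began 138 and 11 bases before its start, and the second lies beyond the printed stretch. A match describes the letters of the window and not a bound site.

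More GMPs of the BCR-ABL sets than of the control expressed most of these genes. For 7 of the 10 members the share of expressing cells was higher in each of the 3 BCR-ABL sets than in the control. That placement held for 35.6% of the 12008 genes found in at least 5% of cells of a set. The 7 include Camp, expressed in 2, 2 and 10 cells against 2, whose intervals overlap that of the control throughout. Ltf, with no expressing cell, is not among the 12008 genes. For Lcn2, Wfdc21 and Lrg1 the interval of each BCR-ABL set also lay above that of the control, which held for 0.491% of those genes. With 3 sets against 1, no exact permutation test over sets can give a p below 0.25, so these shares have no test of their own.

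Lcn2 encodes lipocalin 2, a secondary granule protein that binds bacterial siderophores. Its gene (ENSMUSG00000026822) lies on mm10 chromosome 2, from 32384633 to 32388252. It was expressed in 62 of 65 cells (95.4%), 47 of 54 (87%) and 77 of 81 (95.1%) in BCR-ABL replicates 1, 2 and 4, against 43 of 90 (47.8%, interval 37.1% to 58.6%) in the control. Wfdc21 (ENSMUSG00000051748, chromosome 11, 83746940 to 83752642) encodes a small whey acidic protein-type protein. It was expressed in 64.6%, 59.3% and 71.6% of cells against 8.89% in the control (interval 3.92% to 16.8%). Its mean difference of 56.3 percentage points was the largest of the 12008 genes, and that of Lcn2, 44.7 points, ranked 8. Lrg1, a leucine-rich glycoprotein of neutrophil granules, was expressed in 50.8%, 38.9% and 45.7% of cells against 5.56% (interval 1.83% to 12.5%), with rank 16.

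S100a8 and S100a9 encode the subunits of calprotectin and lie near each other on chromosome 3 (ENSMUSG00000056054, 90668978 to 90670035, and ENSMUSG00000056071, 90692632 to 90695721). S100a8 was expressed in 76.9%, 59.3% and 81.5% of cells of the BCR-ABL sets and 41.1% of control cells. The interval of replicate 2 (45% to 72.4%) overlapped that of the control (30.8% to 52%), and those of replicates 1 and 4 did not. S100a9 was expressed in fewer cells, at 20.0%, 22.2% and 33.3% against 6.67%. Chil3, a chitinase-like protein also called Ym1, was expressed in 56.9%, 42.6% and 38.3% against 21.1%, and only replicate 1 had an interval clear of the control. Hp, which encodes haptoglobin, was near saturation everywhere, at 100%, 96.3% and 100% against 98.9%.

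Unlike Lcn2, the secondary granule genes Camp, Ngp and Ltf were found in few or no cells. Camp, the cathelicidin gene, was expressed in 2, 2 and 10 cells of the BCR-ABL sets and 2 control cells, which is 3.08%, 3.70% and 12.3% against 2.22%. Ngp, the neutrophilic granule protein, was expressed in 6, 2 and 10 cells and in 5 control cells, or 9.23%, 3.70% and 12.3% against 5.56%, so replicate 2 lay below the control. Ltf, which encodes lactoferrin, reached 10 reads in none of the 290 thinned cells, and the exact intervals reach up to 5.52%, 6.60%, 4.45% and 4.02% of cells in the 4 sets. Taken as 3 cells of a set, the limit that a count of 0 allows is 4.62%, 5.56%, 3.70% and 3.33%. Its reads over all kept cells were 0, 0, 11 and 3. Outside the list, Mmp9 (gelatinase B) had 1 read in all kept cells. Mmp8 (neutrophil collagenase) reached 10 reads in 0, 2 and 0 cells of the BCR-ABL sets and in 5 control cells. Ly6g, which encodes the mature neutrophil antigen detected by Gr-1 antibodies, reached 10 reads in 1, 0 and 1 cells and in 0 control cells.

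The threshold of 10 reads and the depth bear on these differences. The mean difference from the control was 31.4 percentage points for S100a8 and 44.7 for Lcn2, and with 1 read as the threshold it was 8.89 and 20.1, since most control cells held a few reads of both. At 50 reads Lcn2 differed by 58.5 points, Wfdc21 by 34.4 and Lrg1 by 17.1, where at 10 reads these were 44.7, 56.3 and 39.6. At a depth of 200000 reads and a threshold of 10, they were 55, 40.2 and 20.8 points.

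**Figure D1:**
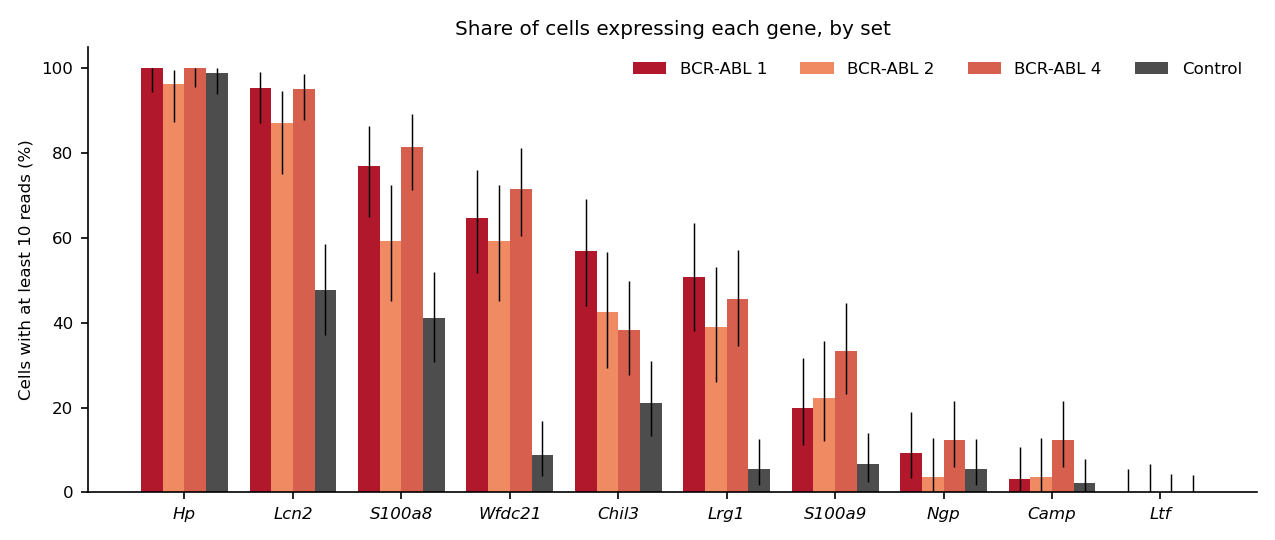
Percentage of thinned cells with at least 10 reads of each gene (vertical axis) in the 4 sets, with error bars at exact 95% intervals. Lcn2, Wfdc21 and Lrg1 are higher in each BCR-ABL set than in the control beyond these intervals, Hp is near 100% in all sets and Ltf is at 0 in all.

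Reads per cell showed 3 patterns. Lcn2 was both in more cells and at a higher level in the cells that had it. Its reads per thinned cell ran from 0 to 829 with a median of 207 in BCR-ABL replicate 1, from 0 to 597 with a median of 115.5 in replicate 2, and from 0 to 773 with a median of 345 in replicate 4. In the control they ran from 0 to 228 with a median of 5.5, so single cells overlapped while the set medians did not. Among expressing cells the mean of the 3 set medians was 244 ± 96.6 reads (SD, n = 3), against 50 in the control. Chil3 had the same form. Its median in expressing cells was 130 ± 19.7 reads against 25, and its highest cells held 7221, 3333 and 6483 reads against 826.

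Lrg1 and Wfdc21 differed mainly in how many cells had them. Reads of Lrg1 in expressing cells had medians of 44, 41 and 39 in the BCR-ABL sets, and the 5 expressing control cells had 62. The share was 8.12 times that of the control, and the mean level in expressing cells was 0.915 times. For Wfdc21 these ratios were 7.33 and 1.38. Its median in expressing cells was 56.8 ± 15.6 reads against 23 in the 8 expressing control cells, or 2.47 times, so by the median its level was also higher. In the control, 1 cell with 266 reads held 47.7% of the Wfdc21 reads. S100a9 was at a median of 67, 60 and 35 reads in expressing cells against 164 in the 6 expressing control cells, so the few control cells that had it were not low. Hp had the third pattern, with nearly every cell positive and a median over all cells of 738, 671 and 485 reads against 434.5.

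Reads of S100a8 and Chil3 were concentrated in few cells. The highest S100a8 cells held 4129, 3202 and 3460 reads in the BCR-ABL sets, and the highest of all, 4672, was a control cell that held 41% of the S100a8 reads of its set. The median over all cells was 57, 26 and 143 against 4 in the control. The 10 cells with most S100a8 held 70.3%, 84.2% and 51% of the reads in the BCR-ABL sets, against 90.1% in the control. For Chil3 the 10 highest cells held 88.7%, 95.4% and 86.1%, against 88.8%. For Ngp, 1 cell of replicate 4 with 808 reads held 46.8% of the reads of that set.

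**Figure D2:**
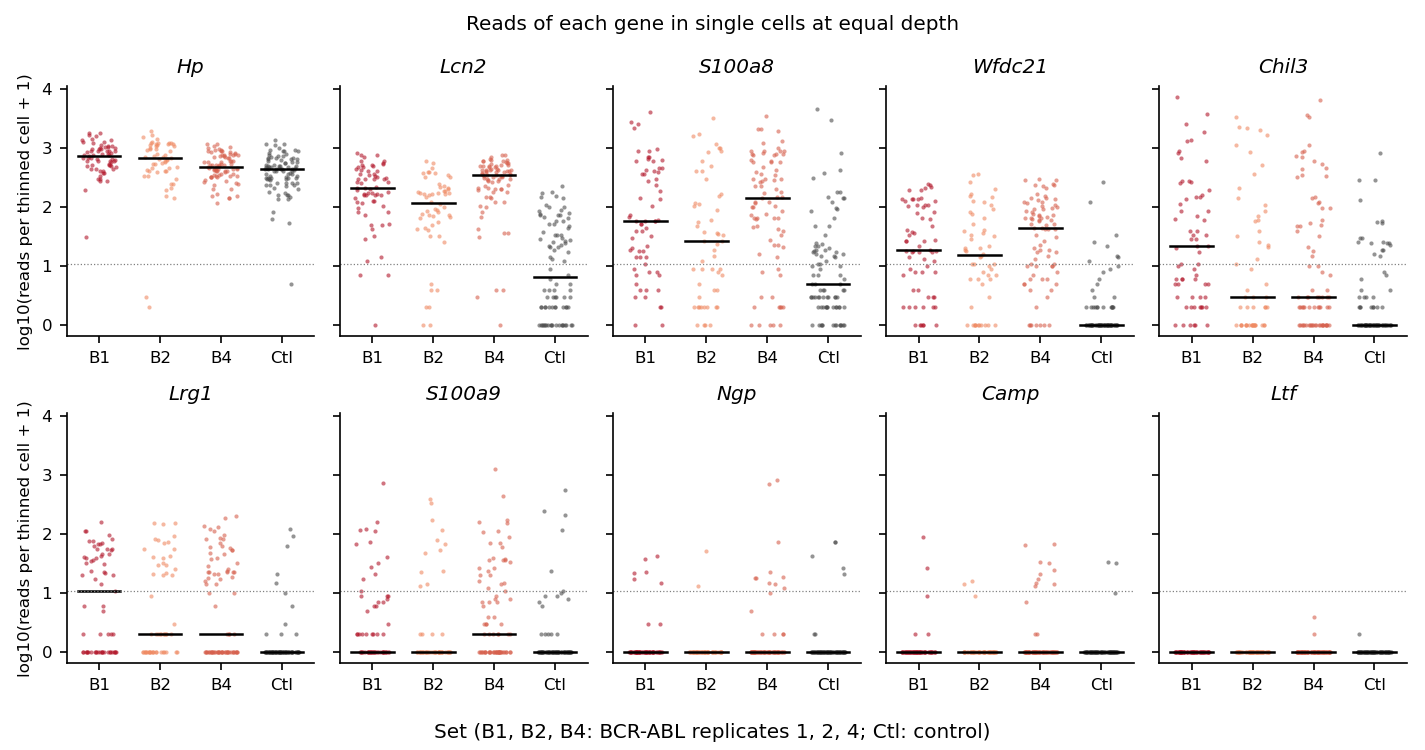
Reads of each gene per thinned cell on a log10 scale (1 added), 1 point per cell, with black bars at the set medians and a dotted line at 10 reads. Lcn2 and Wfdc21 are shifted upward in the BCR-ABL sets, and S100a8 and Chil3 spread from 0 to between 3202 and 7221 reads in the BCR-ABL sets.

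Sums over all kept cells of a set were then compared across all genes with edgeR's quasi-likelihood test. Such sums cannot tell more expressing cells from more RNA per cell, and shares at a fixed number of reads separate these only in part. None of the 20324 genes tested passed an adjusted p of 0.05 in this fit, in either direction (0% higher and 0% lower), with a smallest adjusted p of 0.594. At an unadjusted p below 0.05, 771 genes were higher (3.79%) and 688 lower (3.39%). Of the 9 members tested, all but Ltf, 6 were among the former: S100a8, S100a9, Lcn2, Chil3, Wfdc21 and Lrg1. All 3 BCR-ABL sums lay above the control for 8 members, the exception among those tested being Ngp, where 24.2% of all genes were so placed. DESeq2, on the same sums, gave the same 6 members an adjusted p below 0.05, where it called 394 genes higher (2.19%) and 163 lower (0.908%). The median log2 fold change was 1.66 over the 9 members and 0.05 over all genes tested.

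Lrg1 stood at 34.1, 33.8 and 38.4 CPM against 3.78, a log2 fold change of 3.23 (SE 0.26), and its unadjusted p of 0.000117 was the second smallest of all genes. Wfdc21 stood at 83.4, 58.5 and 80.4 CPM against 8.55 (3.11, SE 0.32), and Lcn2 at 442, 258 and 504 against 45.7 (3.14, SE 0.49). The adjusted p of each of these 3 genes was 0.594 in edgeR, and each BCR-ABL set was above the control by more than the range among the BCR-ABL sets for Lrg1 and Wfdc21, but not for Lcn2. Chil3 stood at 711, 308 and 290 CPM against 43 (3.34, SE 0.73). Without replicate 1 this was 2.80, and without the cell of each set with most Chil3 reads it was 4.47. Its sums may share reads with the close paralog Chil4, which stood at 13.8, 5.67 and 5.80 CPM against 0.879, so Chil3 is less certain than the others. S100a8 stood at 532, 341 and 419 CPM against 142 (1.60, SE 0.30), and S100a9 at 51.2, 30.4 and 40.9 against 15.8 (1.37, SE 0.37).

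Over all cells, neither tool gave Hp, Camp or Ngp an adjusted p below 0.05. Hp stood at 1117, 1108 and 771 CPM against 683 (0.55, SE 0.26), with replicate 4 nearest to the control. Camp stood at 2.11, 0.813 and 3.62 CPM against 0.688. Ngp stood at 2.23, 1.64 and 20.2 CPM against 4.74, with 2 sets below the control and 1 above, and its log2 fold change of 0.76 (SE 1.65) was -1.29 without replicate 4. Per kilobase of exon, Hp was the highest member in 1 BCR-ABL set, replicate 2 (690 CPM per kb), and in the control (425), and S100a8 was highest in replicates 1 and 4 (766 and 604). The S100a8 level per kb was 7.80, 8.44 and 7.70 times that of S100a9 in the BCR-ABL sets, against 6.77 times in the control.

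Other genes of late granules and mature neutrophils were less one-sided than the members. Of 43 genes on that list 35 were tested. None passed in edgeR, 8 were higher and 3 lower at an unadjusted p below 0.05, and the median log2 fold change was 0.57. Dgat2, a triglyceride synthesis enzyme, stood at 120, 92.9 and 80.5 CPM against 20.6, and Fcnb (ficolin B) at 76.6, 159 and 155 against 29.5. Lyz2, the lysozyme gene shared with monocytes, stood at 307, 483 and 327 CPM against 927, below the control in each BCR-ABL set. The primary granule list had 9 of 16 genes higher and 1 lower at that level, with a median of 0.51, and Elane, neutrophil elastase, had a log2 fold change of 0.49 (SE 0.08).

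Regulators and monocyte genes differed alongside. Gfi1, a repressor that promotes the neutrophil fate, was expressed in 75.4%, 66.7% and 93.8% of cells of the BCR-ABL sets and 38.9% of control cells, and Cebpe, which encodes C/EBPε, in 75.4%, 64.8% and 88.9% against 37.8%. The whole list of 16 granulocyte regulators was mixed, with 9 positive and 7 negative log2 fold changes, 3 higher and 2 lower at an unadjusted p below 0.05 and a median of 0.13. The 2 lower were Zeb2, a repressor (-0.86, SE 0.15), and Rara, the retinoic acid receptor alpha gene (-3.98, SE 1.13). Irf8, which promotes the monocyte fate, was expressed in 41.5%, 66.7% and 17.3% against 87.8%. All 18 genes of the monocyte and macrophage list had negative log2 fold changes, 8 of them at an unadjusted p below 0.05 (median -1.77). Their summed reads per cell ran from 156 to 8408, 225 to 9901 and 289 to 21001 in the BCR-ABL sets, with medians of 3839, 3995 and 3340, and from 124 to 13548 with a median of 6196 in the control. C1qa and C1qc were at 0 in all 3 BCR-ABL sets, as was C1qb in replicate 1, and these 3 genes had reads in the control. The part of cell makeup in the sums over all cells was not tested. The comparison was also made within Gfi1-positive cells.

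Gfi1-positive cells (at least 10 Gfi1 reads) numbered 49, 36 and 76 in the BCR-ABL sets, against 35 control cells. Of these, 14, 20 and 14 also expressed Irf8, against 28 of the control, so the selection was made up differently between groups. Sums of this selection were at the equal depth of thinned cells, whereas the fit over all cells used unthinned reads. Against thinned sums over all cells, the log2 fold change was larger in this selection for Chil3, Ngp and Hp. For Lcn2 it was 3.06 against 3.04, and for the other members tested it was smaller. None of 16667 genes passed edgeR's adjusted p of 0.05 (0% higher, 0% lower), with a smallest adjusted p of 0.312. At an unadjusted p below 0.05, 1092 genes were higher (6.55%) and 603 lower (3.62%), and 6 of the 9 members tested were among the former. DESeq2 called 5 members higher (Lcn2, Chil3, Wfdc21, Lrg1 and Hp), where it called 3.16% of genes higher and 0.717% lower. All 3 sums lay above the control for 8 members, where 27.7% of genes were so placed. Chil3 stood at 576, 388 and 297 CPM against 18.8 (log2 fold change 4.48, SE 0.50), and Lcn2 at 368, 207 and 485 against 42.3 (3.06, SE 0.56). Wfdc21 stood at 102, 91.6 and 95.7 CPM against 19.6 (2.30, SE 0.20), and Lrg1 at 42.6, 35.5 and 38 against 12.8 (1.59, SE 0.27). Hp stood at 1170, 1093 and 790 CPM against 542 (0.91, SE 0.25; DESeq2 adjusted p = 0.00252). Ngp stood at 3.46, 2.57 and 32.9 CPM against 1.71 (2.93, SE 1.86), and without replicate 4 its log2 fold change was 0.82.

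By sums, S100a8 and S100a9 were closer to the control in this selection. Their log2 fold changes were 0.60 (SE 0.21) and 0.41 (SE 0.24). Over all cells they were 1.44 and 1.12 in thinned sums and 1.60 and 1.37 in unthinned sums. S100a8 stood at 693, 513 and 533 CPM against 382 and S100a9 at 47.8, 47.8 and 59.2 against 39. By the share of expressing cells S100a8 was not closer, at 79.6%, 66.7% and 81.6% against 34.3%. Over all cells these shares were 76.9%, 59.3% and 81.5% against 41.1%. S100a9 was at 24.5%, 30.6% and 32.9% against 11.4% in this selection. The highest S100a8 cell among the Gfi1-positive control cells held 4672 reads, and their median was 3. Whether the difference changed between selections was not tested, since the cells are shared. The monocyte list still had 8 of 16 tested genes lower at an unadjusted p below 0.05 in these cells, so they were not alike in that respect. Of the basophil and mast cell list, 8 of 8 genes were positive there with 3 at an unadjusted p below 0.05 (median 3.10), where over all cells 3 were positive and 5 negative (median -0.09). Of the eosinophil list, 4 of 5 tested genes were positive and none of these 4 was at that level, and 1 cell of replicate 4 held 101542 reads of the list. The part of these cell types in the members' values was not tested.

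Lcn2 did not follow the split into Gfi1 and Irf8 cells. In cells with Irf8 and without Gfi1 it was expressed in 13 of 13 and 16 of 16 cells of BCR-ABL replicates 1 and 2, and in 26 of 51 such control cells. Replicate 4 had no such cell. In cells without Gfi1 as a whole it was expressed in 16 of 16, 18 of 18 and 5 of 5 cells, against 27 of 55 in the control. In Gfi1 cells without Irf8 the counts were 32 of 35, 12 of 16 and 58 of 62, against 3 of 7 control cells, which is too few to compare. Lrg1 was likewise expressed in 8 of 13 and 9 of 16 of the Irf8 cells without Gfi1, against 1 of 51 in the control, and Wfdc21 in 7 of 13 and 8 of 16 against 3 of 51. S100a8 was expressed in 8 of 13 and 7 of 16 of these cells, against 22 of 51.

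**Figure D3:**
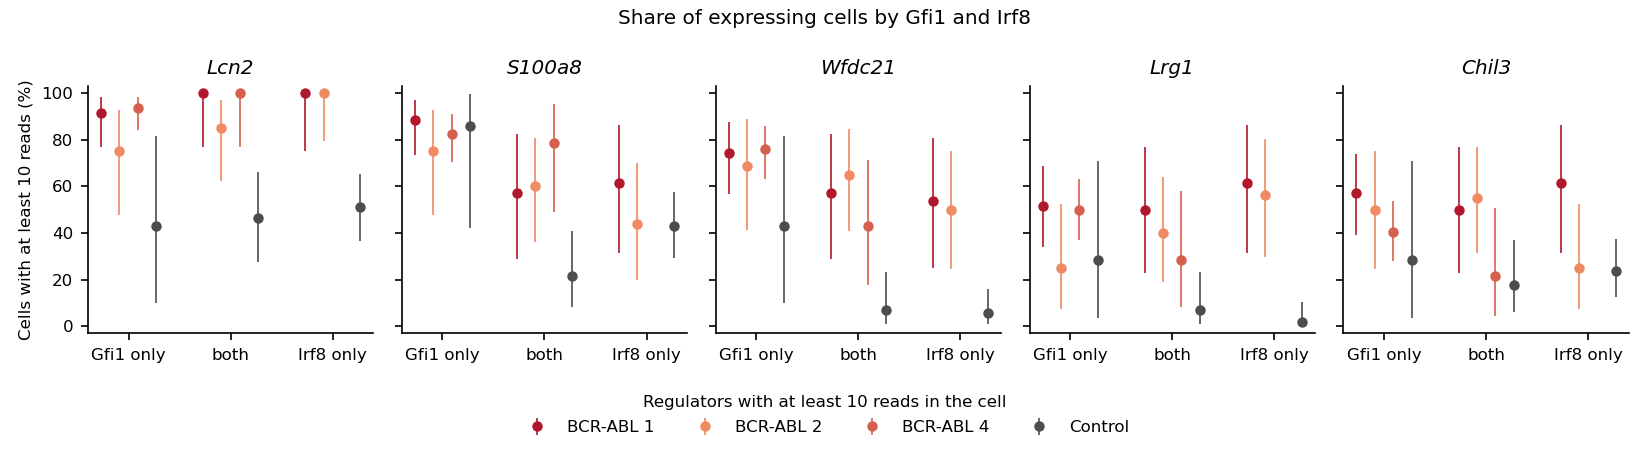
Percentage of cells with at least 10 reads of 5 genes (vertical axis) in cells with Gfi1 only, both or Irf8 only, by set, with exact 95% intervals. Lcn2 is at 100% in the Irf8-only cells of BCR-ABL replicates 1 and 2, and replicate 4 has no point there because it held no such cell.

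The members per cell were counted next. A BCR-ABL cell expressed a median of 5, 4 and 5 of the 10 genes and a control cell 2. At least 5 members were expressed in 36 of 65 (55.4%), 23 of 54 (42.6%) and 52 of 81 (64.2%) BCR-ABL cells and in 7 of 90 control cells (7.78%). At most 1 was expressed in 1, 3 and 1 BCR-ABL cells and in 25 control cells. No cell expressed 9 or 10, and the highest number was 8 in each BCR-ABL set and 6 in the control.

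**Figure D4:**
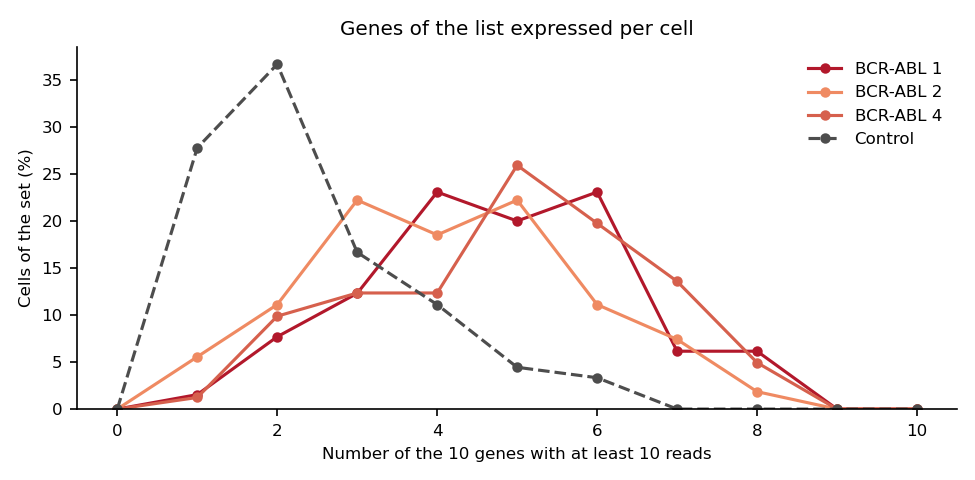
Percentage of the thinned cells of each set (vertical axis) by the number of the 10 genes with at least 10 reads (horizontal axis). The control peaks at 2 genes, and the BCR-ABL sets at 3 to 6 genes.

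Ordered by the share of expressing cells, the members fell in nearly the same order in each BCR-ABL set: Hp, Lcn2, S100a8, Wfdc21, Chil3, Lrg1, S100a9, then Ngp and Camp, and Ltf last. In replicate 4 Lrg1 and Chil3 changed places. In replicate 2 S100a8 and Wfdc21 tied, and Ngp and Camp tied in replicates 2 and 4. Neighbours from Wfdc21 to Lrg1 had overlapping intervals in replicates 1 and 2. In the control Chil3 stood before Wfdc21 and S100a9 before Lrg1, and all genes from Wfdc21 downward were within 8.89% of cells or fewer, with overlapping intervals. This is an order of shares across cells sampled once and not a course in time.

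A strict sequence would have each cell express the genes up to some point of the order and none after it. Of the BCR-ABL cells, 32 of 65 (49.2%), 22 of 54 (40.7%) and 36 of 81 (44.4%) were of that form for the order of their own set, and of the control cells 55 of 90 (61.1%). The control percentage rests on cells with few members. Hp was found in nearly every cell and Ltf in none, so these genes fit the order almost by construction. Without them, among cells that expressed any other member, the percentages were 48.4%, 43.4% and 43.8%, against 46.2% in the control. Each order was scored on the cells it was taken from, and the share that independent genes would give was not computed. S100a9 was nested in S100a8: all 58 cells that expressed it also expressed S100a8, whereas 37, 20, 39 and 31 cells had S100a8 without it. In the sums of the 4 sets S100a8 stood at 532, 341, 419 and 142 CPM and S100a9 at 51.2, 30.4, 40.9 and 15.8. The part of this difference in level in the nesting at 1 threshold of 10 reads was not tested. Wfdc21 was not nested in S100a8 in the same way, with 5, 7 and 5 BCR-ABL cells having Wfdc21 alone and 0 control cells. Lrg1 was spread over cells with and without S100a9, since 27 of its 96 cells expressed S100a9 and 89 expressed Lcn2.

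The 16 cells with Camp, a gene near the end of this order, differed in which of the earlier genes they expressed. All 16 expressed S100a8, 15 Hp, 15 Wfdc21, 14 S100a9, 13 Lcn2, 11 Chil3 and 7 Lrg1. The 2 control cells among them expressed neither Lcn2 nor Chil3. Of the 16 cells, 15 expressed Cebpe, 14 Gfi1 and 1 Irf8. All 16 also expressed Kit and Elane, so they kept the progenitor receptor and the primary granule protease, and 8 expressed Cd34. Of the 23 cells with Ngp, 22 expressed S100a8, 11 S100a9 and 19 Lcn2, and only 4 also expressed Camp. The 5 control cells with Ngp differed from the 18 of the BCR-ABL sets in that none expressed Wfdc21 or Lrg1, against 15 and 12 of the 18. These are counts of few cells from single sets and were not tested.

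Within sets, the members correlated over cells to different degrees. The members expressed in at least 5% of cells of every set were 7, which gives 21 pairs. Correlations are over 65, 54, 81 and 90 cells that share a library preparation and depth, and are given as a description. The median Spearman rho of the pairs was 0.34, 0.33 and 0.27 in the BCR-ABL sets, against 0.19 in the control. Without thinning it was 0.20, 0.24 and 0.18 against 0.21, so the control then lay within the range of the BCR-ABL sets. By the mean over the 4 sets, the highest pair was S100a8 with Wfdc21, at 0.75, 0.76 and 0.80 against 0.39 in the control. S100a8 with S100a9 followed at 0.65, 0.51 and 0.58 against 0.38, and then S100a8 with Chil3 at 0.44, 0.70 and 0.68 against 0.22. By Pearson's r of log2 reads, S100a8 with S100a9 was at 0.68, 0.64 and 0.57 against 0.62. For that pair the control then lay within the range of the BCR-ABL sets. S100a8 with Wfdc21 was at 0.72, 0.75 and 0.78 against 0.60, and S100a8 with Chil3 at 0.44, 0.73 and 0.63 against 0.24. The median r of the 21 pairs was 0.31, 0.31 and 0.27 against 0.17. Of the 90 control cells, 6 expressed S100a9 and 8 Wfdc21.

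Lcn2 stood apart from the other members. Its rho with S100a8 was 0.12, -0.06 and -0.29 in the BCR-ABL sets, against 0.15 in the control. With S100a9 it was 0.10, -0.02 and -0.47, against 0.05. With Elane it was -0.32, -0.34 and -0.48 in the BCR-ABL sets, against 0.26 in the control. As Pearson's r of log2 reads it was 0.0038, -0.23 and -0.21, against 0.27. The rho with Kit was -0.51, -0.38 and -0.12, against -0.03.

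**Figure D5:**
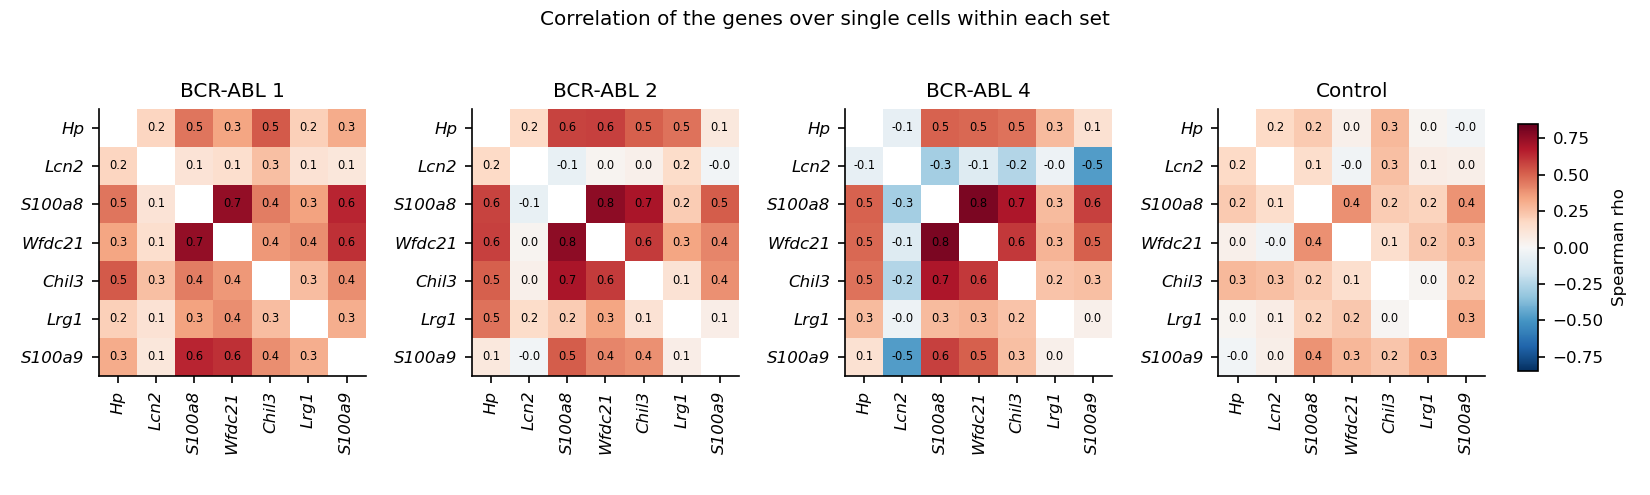
Spearman rho over the thinned cells of each set for the 7 genes found in at least 5% of cells of every set, with red for positive and blue for negative values. S100a8, Wfdc21, S100a9 and Chil3 form a block in the BCR-ABL sets. By the mean over the 4 sets, Hp has a rho of 0.44 with S100a8, 0.44 with Chil3, 0.36 with Wfdc21 and 0.13 with S100a9. The Lcn2 row is pale in replicates 1 and 2 and blue in replicate 4.

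The genes most like the members over cells were found by the rho of each gene with the mean rank of the 10 members, averaged over the 4 sets, among 8491 genes. They were Fcnb (0.65), Tmsb4x (0.58), Ly6c2 (0.55), Mgst2 (0.54), Trem3 (0.52), Ms4a3 (0.52), Clec4a2 (0.51), Prtn3 (0.50), Mcemp1 (0.50) and Dstn (0.50). Fcnb and Prtn3, the proteinase 3 gene, encode neutrophil granule proteins and Tmsb4x an actin-binding peptide. Elane ranked 12 (0.49), Cebpe 115 (0.27) and Gfi1 344 (0.16). The least like were Cd34 (-0.55), S100a10, Ly6e, Cd27 and Adgrg1. Cd34, the progenitor antigen of the sort, had -0.75, -0.62 and -0.56 in the BCR-ABL sets, against -0.27 in the control, and stood at 149, 182 and 155 CPM against 436. Mki67, a marker of cycling cells, had a rho of 0.16 and was expressed in 73.8%, 77.8% and 79% of cells against 78.9%.

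The 61 wells that were not kept also held reads of most members. Of these wells, 20, 35 and 4 were of BCR-ABL replicates 1, 2 and 4, and 2 were of the control. The 61 wells had at most 34074 reads on genes each, so their counts are not at the depth of the thinned cells. Camp and Ngp had no read in them. Lcn2 had 129 reads, or 207 CPM of their summed reads, above the 45.7 CPM of the control sum of kept cells. Wfdc21 had 72 reads or 116 CPM, above the sums of kept cells in each set, and Lrg1 had 8 reads or 12.8 CPM. Chil3 reached 10 reads in 5 wells with 607 reads or 974 CPM, of which 458 reads lay in 1 well. S100a8 reached 10 reads in 13 of these wells with 749 reads, or 1202 CPM of their summed reads, against 142 to 532 CPM in the sums of kept cells, and 379 of these reads lay in 1 well. The part of such reads in the values of kept cells was not tested.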

How the data were processed

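The cDNA of each GMP was made by SMART-seq2 and sequenced as a Nextera XT library, per the labels' protocols. The authors deposited unnormalised read counts per Ensembl gene with 1 column per well. Alignment by GSNAP to mm10 and counting by HTSeq 0.5.3p3 are named in the submitters' processing notes. Annotation release, strand setting and read filters: not given in the sources used here. Antisense and overlapping genes therefore cannot be told apart. No member overlaps an exon of another gene in GENCODE vM21, which gave symbols to 45229 of 46078 identifiers. Gene reads were 44.9% of the total, unaligned reads 40.9%, reads outside features 7.67%, ambiguous reads 6.24% and spike-in reads 0.265%, and only gene reads entered library sizes. Each sample is 1 cell, so counts were summed per set over kept wells, and edgeR 4.0.16 compared the 3 BCR-ABL sums with the control sum (quasi-likelihood, TMM factors, filterByExpr, Benjamini-Hochberg over all genes). The fit has 2 residual degrees of freedom, none from the control, whose spread is taken to equal that of the BCR-ABL sets. No doublet caller was used on the sorted wells. The code was tested on simulated data. Alternatives were RLE factors, DESeq2 1.42.0, no filter, thinned sums, stricter wells, other read thresholds and depths, and leaving out each BCR-ABL set. Named genes outside the members follow a written rule: up to 4 genes of each list by smallest p, a fixed set of regulators and gate genes, and the 10 most and 5 least alike genes; of these, those a result turns on are named. Chil4, Mmp8, Mmp9 and Fcgr3 were added for their bearing on the members. The members and lists were chosen with earlier results of these data known. The value of 1 listed gene is not reported here.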

Additional observations from a re-analysis of the deposited data

Results flagged for a closer look

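Reads of 2 members appeared in wells left out of the comparisons, above the level of the control wells that were left out. S100a8 had 379 reads in 1 well of BCR-ABL replicate 2 that was not kept, where the 2 such control wells had at most 25. Chil3 had 458 reads in 1 well of BCR-ABL replicate 1 that was not kept, where the control wells had at most 1.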

How the results depend on the processing

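edgeR called 0 genes under RLE factors, no filter, thinned sums, stricter wells and without each BCR-ABL set, whereas DESeq2 called 394 genes higher and 163 lower over all cells and 546 in Gfi1-positive cells; the cause was not tested. Of the 9 members tested, 8 kept their direction in all 9 alternatives, and Ngp ranged from -1.29 (without BCR-ABL replicate 4) to 1.24 (without replicate 2) when each set was left out. The median log2 fold change of members ran from 1.62 to 2.06. The number of members with a higher share in every BCR-ABL set was 6 to 9, with the 9 reached without replicate 2. The mean percentage of cells in strict order was 48.9%, moved to 68.2% at 50 reads and to 63.5% at a depth of 200000 reads, and the cause was not tested. The median pair correlation was 0.28 over the 4 sets and 0.21 in unthinned cells, where the control lay within the range of the BCR-ABL sets. Gfi1 cells without Irf8 were not fitted, since the control held 7. No paired analysis was possible because the control is 1 set and shares fewer than 2 replicate numbers with the BCR-ABL sets. At a depth of 200000 reads the mean share difference of Lrg1 was 20.8 percentage points and that of Wfdc21 40.2, against 39.6 and 56.3 as reported.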
